A study of Ovis aries with 6 samples.

Results

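Carbonic anhydrases convert carbon dioxide and water to bicarbonate and a proton. The 5 genes described here are CA1, CA2, CA4, CA12 and CA13 of the sheep, taken as the matrix entries whose NCBI gene numbers carry those symbols. All 5 were found among the 26741 genes of the count tables, and 9 further genes of the family were found beside them. The rule that picks the 5 names them by symbol and uses no measured value, but the 5 were chosen with earlier results of these data known. They were measured in nuclei of rumen wall from 6 male lambs, 3 labelled MGNS and 3 labelled MGHS. What MGNS and MGHS stand for is not stated, nor is an age, strain or genotype. The series title speaks of grazing sheep and supplementary feeding, but the labels do not say which group received a supplement. The tissue came from the ventral rumen after slaughter, was kept frozen, and gave 1 droplet-based single-nucleus RNA library per animal.

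The rumen is lined by a stratified squamous epithelium. Its basal cells divide on the basement membrane, spinous cells lie above them, and granular and cornified cells face the fluid in which microbes ferment feed to short-chain fatty acids and carbon dioxide. Carbonic anhydrase supplies the protons and bicarbonate that sodium-proton and bicarbonate exchangers trade for sodium, chloride and fatty acids. The family's forms differ in where they work. CA1, CA2 and CA13 are cytosolic enzymes, CA4 is tethered to the outer face of the plasma membrane by a lipid anchor, and CA12 crosses the membrane with its catalytic domain outside. CA1 is abundant in red blood cells and in the surface epithelium of the large intestine, CA2 is a widespread and very fast form, and CA4 is a known product of capillary endothelium.

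After filtering, 41822 nuclei remained, 4830 to 10201 per library. The deposited counts of a library, which are counts of unique molecular identifiers (UMIs, each marking 1 captured RNA molecule), summed to between 34418856 and 59997793. The median nucleus of a library held 3123 to 4764.5 UMIs. The labelled cell type is rumen epithelial cells, yet clusters led by keratinocyte markers held 31.8% of the nuclei, 26.1% to 40.7% per animal. T or NK-like, fibroblast-like, vessel, B or plasma-like, macrophage or dendritic-like and glia-like nuclei made up most of the rest. In the 15 pairs of libraries, 19 to 49 cell barcodes occurred in both, at most 0.524% of the smaller library. A shallow, unnamed cluster 9, with a median of 528 UMIs per nucleus, took 28.5% of the nuclei of MGHS animal 3 and 4.02% to 7.18% of the others. Hemoglobin beta was counted 3 times in all retained nuclei, and the red blood cell marker HBM was at 0. The 10 red cell markers in the files summed to 1.46 to 3.21 CPM (UMIs per 1000000 UMIs) in MGNS and 2.36 to 3.94 CPM in MGHS.

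Each level below is a gene's UMIs summed over the nuclei of a class in 1 animal and divided by all UMIs of those nuclei, in CPM. Levels are compared within a gene only, since the counts were not scaled by transcript length. The classes were built by clustering the same nuclei with all 14 family genes set aside from the clustering, so levels by class are given as a description with no test. The 5 genes divided into an epithelial set, CA1, CA12 and CA13, and a vessel set, CA2 and CA4. The division is by where most UMIs lay, and CA2 was the least clear of the 5. Keratinocyte-like nuclei held 71.1% of CA1 UMIs, 88.2% of CA12 UMIs and 78.9% of CA13 UMIs. The same nuclei held 4.44% of CA4 UMIs and 10.8% of CA2 UMIs.

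**Figure D1:**
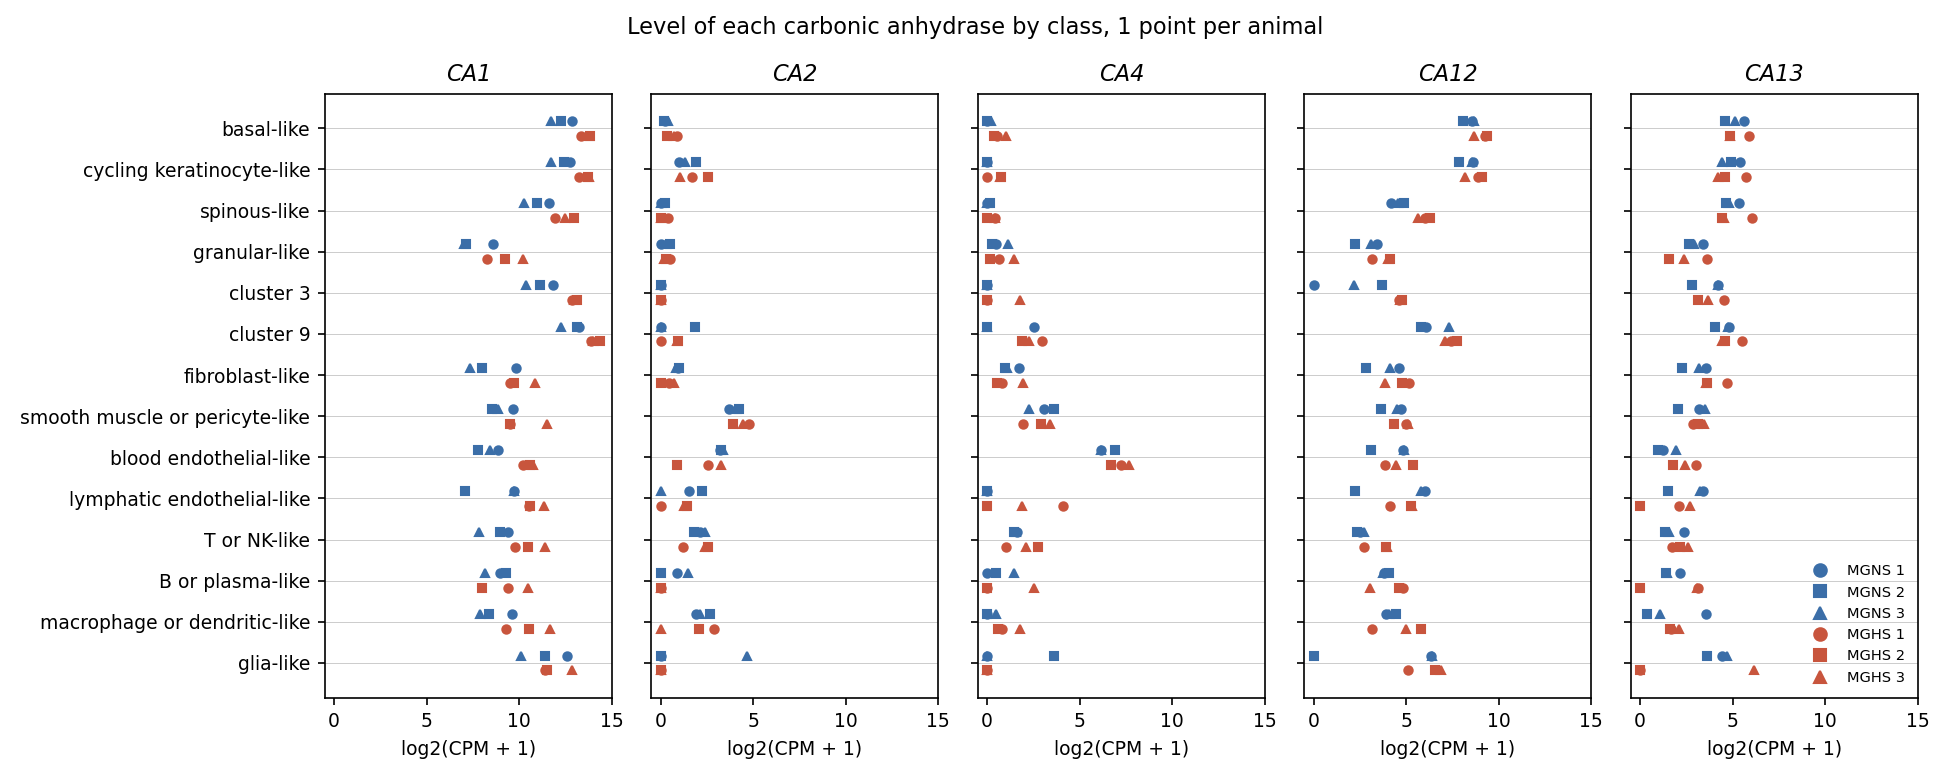
Level of each gene, as log2(CPM + 1) on the horizontal axis, in 14 of the classes and clusters, with 1 point per animal (blue, MGNS; red, MGHS; the shape gives the animal number). CA12 stood highest in basal-like and cycling keratinocyte-like nuclei, CA4 in blood endothelial-like nuclei and CA2 in smooth muscle or pericyte-like nuclei, while CA1 was counted in every class shown.

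Among the cytosolic forms, CA1 was counted 853877 times, and basal-like nuclei held 43.2% of those UMIs. In basal-like nuclei CA1 measured 7342, 4967 and 3373 CPM in MGNS animals 1, 2 and 3. It measured 10489, 14400 and 14008 CPM in MGHS animals 1, 2 and 3. The 3 MGHS values were all above the 3 MGNS values, and CA1 alone took 0.523% of all basal-like UMIs on average in MGNS and 1.30% in MGHS. The shallow cluster 9, which has CA1 among its 10 leading genes and held 15.1% of CA1 UMIs, gave still higher levels, 9593, 8754 and 4904 CPM in MGNS and 15098, 20788 and 15964 CPM in MGHS. It lay above the basal-like level of the same animal in all 6 animals. Cycling keratinocyte-like nuclei, the dividing cells of the epithelium, followed the basal-like class in the order of mean levels and gave 6845, 5378 and 3312 CPM in MGNS and 9631, 13671 and 13705 CPM in MGHS. The spinous-like layer gave 3143, 2006 and 1224 CPM in MGNS and 3888, 7919 and 5668 CPM in MGHS, below the basal-like level of the same animal in all 6 animals and without overlap between the groups. The granular-like layer gave 375, 139 and 130 CPM in MGNS and 304.5, 600 and 1193 CPM in MGHS. In each of the 6 animals CA1 was thus lower in spinous-like than in basal-like nuclei and lower again in granular-like nuclei, as a description with no test. In the order of mean log2(CPM + 1) over the 17 classes and clusters, the granular-like layer stood last, and no neighbouring pair in that order differed beyond the spread over animals.

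Finer clustering, at a resolution of 1.2, divided the basal-like nuclei. A fine cluster of 1604 nuclei led by TST, CSRP2, KRT79 and CA1 itself gave 10021, 8328 and 4704 CPM of CA1 in MGNS and 16014, 19357 and 18420 CPM in MGHS. A fine cluster of 2880 nuclei led by the basement membrane genes FRAS1 and GRIP1, the basal regulator SOX6 and CA12 gave 6521, 4916 and 2859 CPM of CA1 in MGNS and 8427, 12373 and 10396 CPM in MGHS. In every animal the first of these fine clusters held more CA1 than the second. For CA12 the order was the other way round in 5 of 6 animals. CA12 measured 284, 331 and 338 CPM in the first fine cluster in MGNS and 505, 584 and 363 CPM in MGHS, against 470, 314 and 464 CPM in the second in MGNS and 691, 717 and 469 CPM in MGHS. MGNS animal 2 was the exception. Since CA1 and CA12 are leading genes of these clusters, these orders describe the clusters and are not tests.

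CA1 UMIs also occurred in nuclei of classes other than keratinocytes, where low levels of keratinocyte genes were counted too. In T or NK-like nuclei KRT5, a keratin of basal keratinocytes, was at 37.96 to 154 CPM, against 600.4 to 1475 CPM in basal-like nuclei. In T or NK-like nuclei CA1 measured 679, 491 and 227 CPM in MGNS and 871, 1407 and 2633 CPM in MGHS. The basal-like level was 10.8, 10.1 and 14.9 times the T or NK-like level in MGNS animals 1, 2 and 3 and 12.1, 10.2 and 5.32 times it in MGHS. The spinous-like level was 2.15 to 5.63 times the T or NK-like level. The granular-like level was 0.284 to 0.573 times the T or NK-like level, so CA1 in granular-like nuclei did not exceed its level in that class. The share of free RNA in granular-like nuclei was not tested. Barcodes left out for having under 300 genes gave 3151, 2212 and 1330 CPM of CA1 in MGNS and 3935, 6143 and 8248 CPM in MGHS. Whether these barcodes hold free RNA or shallow nuclei was not tested. In those barcodes too, every MGHS library lay above every MGNS library for CA1. The same held there for CA12 and for KRT5, at 154 to 251 CPM in MGNS and 266 to 439 CPM in MGHS. CA2, CA4, CA13 and the basal markers KRT15 and TP63 overlapped. The share of all genes separated in these barcodes is not given.

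CA1 was also set beside KRT15, another keratin of basal keratinocytes. The ratio of CA1 to KRT15 UMIs was 1.60 to 6.98 in basal-like nuclei, 3.06 to 19.3 in T or NK-like nuclei, 2.03 to 11.4 in granular-like nuclei and 2.27 to 14.7 in the barcodes under 300 genes. In spinous-like nuclei it was 9.89 to 70.4, and in the unnamed cluster 3 it was 11.5 to 189. In each of the 6 libraries the spinous-like ratio exceeded that of the T or NK-like class. The granular-like ratio lay below the T or NK-like ratio in every library. The ratio differed among basal-like nuclei, T or NK-like nuclei and the barcodes under 300 genes as well, so it is given as a description.

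**Figure D2:**
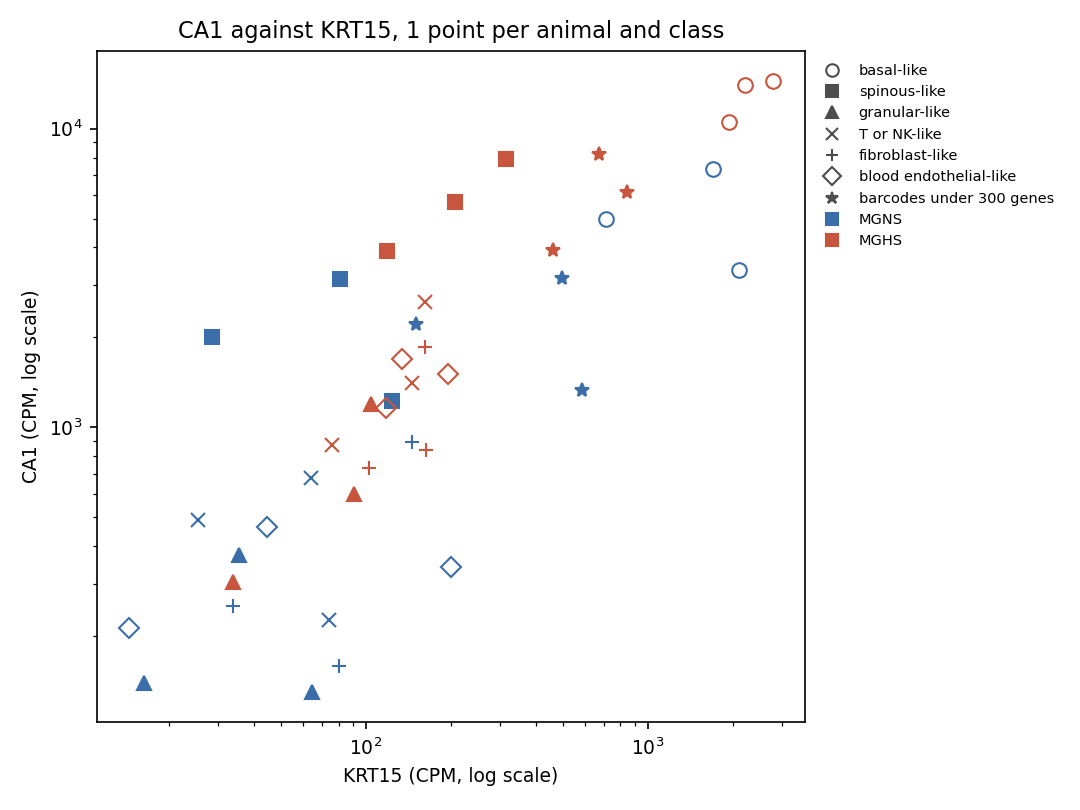
CA1 level (vertical axis, CPM, log scale) against KRT15 level (horizontal axis, CPM, log scale), with 1 point per animal for 6 classes and for the barcodes under 300 genes (blue, MGNS; red, MGHS; the shape gives the class). Within each library the spinous-like ratio of CA1 to KRT15, at 9.89 to 70.4, exceeded that of every other group plotted. Between libraries the ratios overlapped, as T or NK-like nuclei reached 19.3.

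The share of nuclei with a CA1 UMI was 98.2% ± 1.35 (SD, n = 3) in basal-like nuclei of MGNS and 98.6% ± 1.24 (SD, n = 3) in MGHS, at a median of 7414.5 UMIs. The T or NK-like class, given for comparison, had 40.8% ± 12.6 (SD, n = 3) and 69.7% ± 23.2 (SD, n = 3) at a median of 2585 UMIs. After each nucleus was thinned to 1000 UMIs, the basal-like shares were 91.4% ± 4.41 and 96.8% ± 1.81, and the T or NK-like shares were 20.1% ± 4.18 and 48.4% ± 24.5. Thinning left out 51 of 2422 MGNS and 132 of 2544 MGHS basal-like nuclei, and 295 of 4807 and 183 of 3082 T or NK-like nuclei. A CA1 UMI was thus found in nearly every basal-like nucleus of both groups. At 1000 UMIs the mean basal-like nucleus held 4.91 ± 1.92 CA1 UMIs in MGNS and 11.5 ± 1.79 in MGHS (SD, n = 3). In spinous-like nuclei the thinned share was 58.8% ± 15.4 in MGNS and 84.6% ± 6.06 in MGHS, against 87.7% ± 8.60 and 97.2% ± 1.96 unthinned. Thinned granular-like nuclei gave 12.6% ± 3.78 and 34.1% ± 19.2, below the T or NK-like shares of both groups.

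CA13, the other cytosolic form of the epithelial set, was counted 3552 times, 38.7% in basal-like and 25.8% in spinous-like nuclei. It measured 48.7, 23.2 and 33.4 CPM in basal-like nuclei of MGNS and 57.9, 27.8 and 27.5 CPM in MGHS. In spinous-like nuclei it measured 38.9, 23.6 and 26.5 CPM in MGNS and 65.7, 20.2 and 22.2 CPM in MGHS. The groups overlapped in both layers, and animal 1 was the highest of its group in each. Granular-like nuclei gave 9.62, 5.14 and 6.47 CPM in MGNS and 11.1, 1.95 and 4.27 CPM in MGHS, below the spinous-like level of the same animal in all 6 animals. The T or NK-like class gave 4.20, 1.55 and 1.96 CPM in MGNS and 2.32, 3.42 and 5.04 CPM in MGHS. CA13 thus held its level from the basal-like into the spinous-like layer, with overlapping values, and was low in the granular-like layer. In the order of mean log2(CPM + 1), the basal-like, spinous-like, cycling and cluster 9 levels did not differ beyond the spread over animals. The step from cluster 9 to the next, cluster 3, did on that scale, but in CPM their animals overlapped. Cluster 9 gave 15.6 to 43.6 CPM and cluster 3, from 61 CA13 UMIs, 5.97 to 21.8 CPM. Cluster 21 and glia-like nuclei, at 0 to 56.9 and 0 to 71.0 CPM from 33 and 8 CA13 UMIs, came after cluster 3 on the log2 scale but before it by mean CPM. A CA13 UMI was found in 20.3% of basal-like nuclei in MGNS and 21.2% in MGHS, against 0.778% and 1.00% of T or NK-like nuclei, and in 3.72% against 0.332% of MGNS nuclei after thinning.

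CA12, the transmembrane form with an outward catalytic domain, was counted 26281 times, 67.4% in basal-like and 14.8% in cycling keratinocyte-like nuclei. CA12 measured 381, 265 and 404.4 CPM in basal-like nuclei of MGNS and 610, 657 and 404.9 CPM in MGHS. The groups did not overlap, but the highest MGNS animal and the lowest MGHS animal were less than 1 CPM apart. In cycling keratinocyte-like nuclei it measured 389, 234 and 379 CPM in MGNS and 476, 542 and 284 CPM in MGHS, and the groups overlapped. The spinous-like layer gave 16.8, 28.7 and 22.9 CPM in MGNS and 64.1, 76.8 and 49.7 CPM in MGHS, with no overlap. Unlike CA13, CA12 was far lower in the spinous-like than in the basal-like layer of every animal. Among 7 non-epithelial classes of the same animal, glia-like nuclei left aside, the highest CA12 level was 63.3, 20.9 and 54.2 CPM in MGNS and 35.0, 55.6 and 39.6 CPM in MGHS. The spinous-like level lay above that highest value in MGNS animal 2 and in the 3 MGHS animals, and below it in MGNS animals 1 and 3. The sparse glia-like class, with 23 CA12 UMIs in all, gave 80.7, 0 and 82.0 CPM in MGNS and 33.2, 94.6 and 118 CPM in MGHS, above the spinous-like level in 4 of the 6 animals, MGHS animals 2 and 3 among them. Granular-like nuclei gave 3.80 to 16.6 CPM, within the range of the 7 non-epithelial classes of the same animal.

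A CA12 UMI was found in 71.3% ± 7.46 of basal-like nuclei in MGNS and 79.2% ± 2.37 in MGHS (SD, n = 3). The T or NK-like class gave 1.19% and 2.55%. After thinning to 1000 UMIs the basal-like shares were 25.5% ± 5.58 and 35.8% ± 6.79, and the T or NK-like shares were 0.279% and 1.03%. In the spinous-like layer, with a median of 9865.5 UMIs per nucleus, the shares were 12.4% ± 3.03 and 20.3% ± 1.94, and 2.52% ± 0.25 and 4.48% ± 1.2 after thinning.

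**Figure D3:**
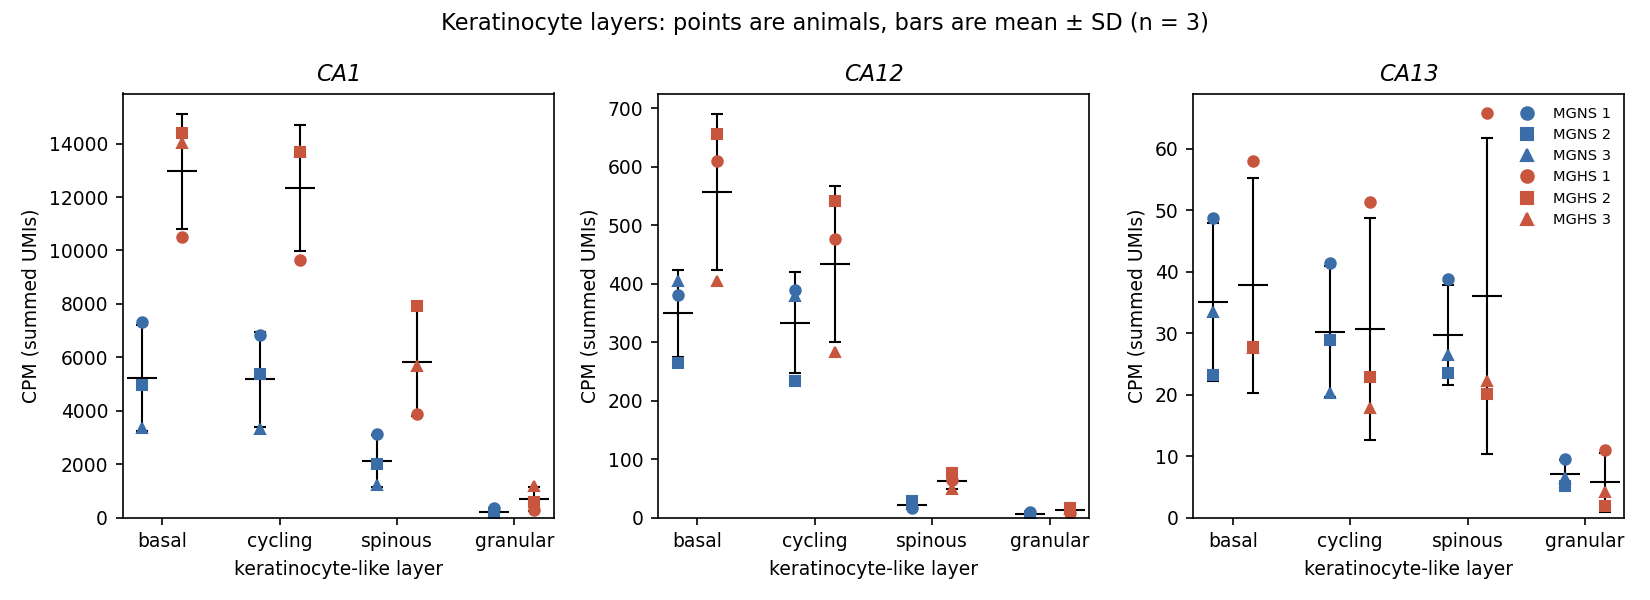
CPM of CA1, CA12 and CA13 in 4 keratinocyte-like layers, with 1 point per animal (blue, MGNS; red, MGHS) and bars for the mean ± SD of 3 animals; each vertical axis starts at 0 and has its own scale. CA1 is lower in the spinous-like and lowest in the granular-like layer, CA12 is already low in the spinous-like layer, and CA13 is low in the granular-like layer.

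The vessel set was rare. CA4, the form anchored on the outer cell surface, was counted 1103 times, 75.3% of them in blood endothelial-like nuclei. CA4 measured 69.7, 120 and 70.4 CPM there in MGNS, from 50, 124 and 74 UMIs. It measured 149, 103 and 203 CPM in MGHS, from 124, 127 and 331 UMIs. MGHS animal 3 was highest, and MGHS animal 2 lay below MGNS animal 2, so the groups overlapped. The blood endothelial-like level exceeded that of the smooth muscle or pericyte-like class beyond the spread over animals. That class in turn exceeded T or NK-like nuclei in the mean, but the animals overlapped, at 2.89 to 11.3 against 0.99 to 5.70 CPM. In basal-like nuclei CA4 was 0 to 1.03 CPM. A CA4 UMI was found in 18.4% ± 3.34 of blood endothelial-like nuclei in MGNS and 29.99% ± 10.4 in MGHS (SD, n = 3), at a median of 3761 UMIs, and in 0.595% and 0.797% of T or NK-like nuclei. After thinning, the blood endothelial-like shares were 6.78% ± 1.16 and 12.5% ± 0.633.

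CA2 was counted 452 times in all retained nuclei, 44.7% of them in smooth muscle or pericyte-like nuclei. That class joined 2 clusters, and CA2 was in the cluster of 968 nuclei led by the pericyte genes RGS5 and ABCC9, not in the one of 1725 nuclei led by the smooth muscle genes MYH11 and ACTA2. In the pericyte-led cluster CA2 measured 43.3, 41.2 and 36.5 CPM in MGNS, from 15, 28 and 28 UMIs. It measured 84.3, 46.6 and 58.6 CPM in MGHS, from 45, 26 and 57 UMIs. The lowest MGHS value was above the highest MGNS value, with means of 40.3 ± 3.50 and 63.1 ± 19.3 CPM (SD, n = 3). This cluster was not fitted on its own, and the share of all genes separated in it is not given. The separation is therefore a description that rests on few UMIs. In the joined class the groups overlapped. MGHS animal 2, at 14.2 CPM, lay below MGNS animal 2, at 17.6 CPM, there. T or NK-like nuclei held 16.8% of CA2 UMIs, at 1.32 to 4.94 CPM, macrophage or dendritic-like nuclei 10.8%, at 0 to 6.44 CPM, and blood endothelial-like nuclei 9.73%. Blood endothelial-like nuclei gave 8.36, 8.69 and 9.51 CPM in MGNS and 4.82, 0.81 and 8.59 CPM in MGHS. In basal-like nuclei CA2 was 0.12 to 0.87 CPM, so the widespread fast cytosolic form was close to the limit of detection in the rumen epithelium of all 6 animals. Cycling keratinocyte-like nuclei gave 0.99 to 4.86 CPM.

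**Figure D4:**
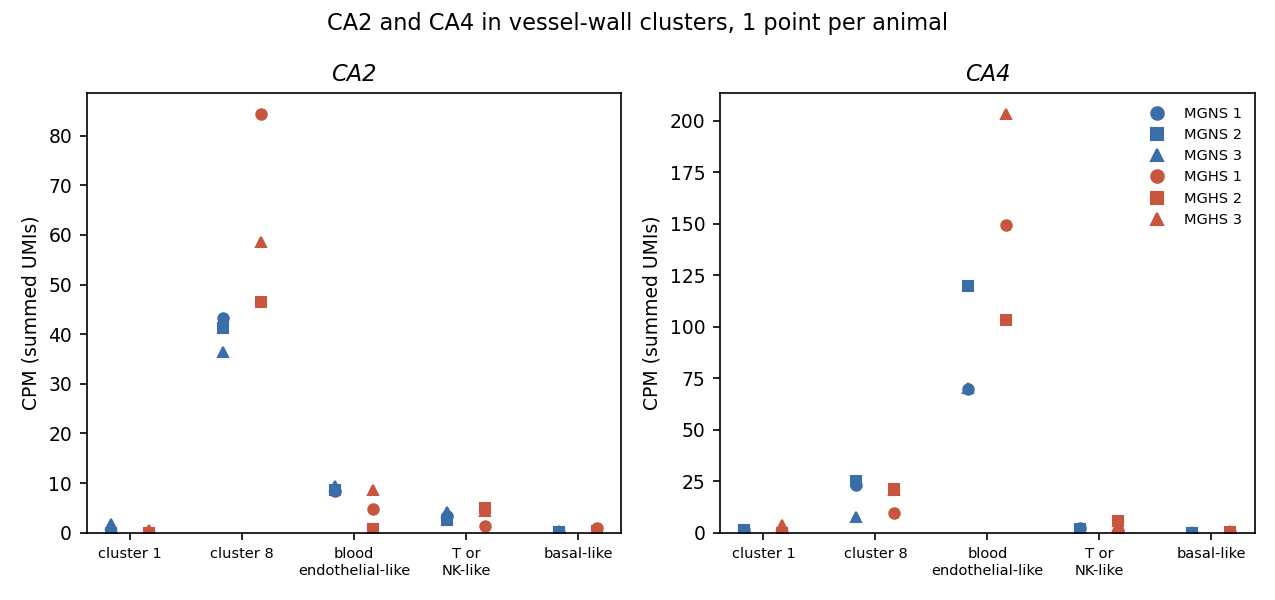
CPM of CA2 and CA4 in smooth muscle-led cluster 1, pericyte-led cluster 8, blood endothelial-like, T or NK-like and basal-like nuclei, with 1 point per animal (blue, MGNS; red, MGHS); vertical axes start at 0. CA2 is high in cluster 8, at 36.5 to 84.3 CPM, and CA4 in blood endothelial-like nuclei, at 69.7 to 203 CPM.

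MGHS was then compared with MGNS by edgeR's quasi-likelihood test on counts summed per animal, with p-values adjusted by the Benjamini-Hochberg method over all genes tested in a class. Fold changes are MGHS over MGNS on the log2 scale, with standard errors (SE), and the threshold was an adjusted p of 0.05. CA1, CA12 and CA13 could be tested in keratinocyte-like nuclei, and CA2 and CA4 were below the count filter there. None of the 3 passed in any of the 4 layers or in all keratinocyte-like nuclei together. The share of all genes that passed was 0.00612% in all keratinocyte-like nuclei, 0.0217% in the basal-like, 0.0318% in the spinous-like, 0% in the granular-like and 0.0099% in the cycling layer. At an unadjusted p under 0.05, edgeR called 1 of the 3 in all keratinocyte-like nuclei, 2 in the basal-like, spinous-like and granular-like layers each, and 1 in the cycling layer. These were CA1 in each and CA12 in the 3 with 2, all higher in MGHS. At that same threshold 9.16%, 8.34%, 6.55%, 7.09% and 7.87% of all genes were higher in MGHS in the same order: all keratinocyte-like nuclei, then basal-like, spinous-like and granular-like nuclei, and the cycling layer last. All 12 fold changes of the 3 genes in the 4 layers were positive. The median of the 3 was 0.77 in the basal-like layer and 1.54 in the spinous-like layer, beside 0.01 over all genes tested in each.

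CA1 had a fold change of 1.42 ± 0.38 (SE, adjusted p = 0.195 by edgeR) in basal-like nuclei, where the group means were 5227 ± 1997 and 12966 ± 2154 CPM (SD, n = 3). It was 1.40 ± 0.38 (SE, adjusted p = 0.145 by edgeR) in cycling nuclei. In the spinous-like layer it was 1.54 ± 0.42 (SE, adjusted p = 0.197 by edgeR), with means of 2124 ± 965 and 5825 ± 2020 CPM. The MGHS mean was thus 2.48 times the MGNS mean in basal-like nuclei and 2.74 times it in spinous-like nuclei. In the granular-like layer, where CA1 did not exceed the T or NK-like level, it was 1.93 ± 0.52 (SE, adjusted p = 0.169 by edgeR) and the groups overlapped. Over all keratinocyte-like nuclei the fold change was 1.34 ± 0.45 (SE, adjusted p = 0.205 by edgeR), and MGNS animal 1, at 4764 CPM, lay above MGHS animal 1, at 4197 CPM. The granular-like share of all nuclei was 16.7%, 15.4% and 8.96% in MGHS and 4.99%, 4.96% and 8.09% in MGNS. With each layer given equal weight the difference in CA1 was 1.46 on the log2 scale. DESeq2 called CA1 in all 5 of these comparisons and limma-voom in none. DESeq2 called 6.16% of all genes in all keratinocyte-like, 3.03% in basal-like, 2.64% in spinous-like, 4.12% in granular-like and 2.02% in cycling nuclei. The neighbouring protein-coding gene LOC114116405 had a fold change of the opposite sign in basal-like nuclei. Whether it shares reads with CA1 was not tested.

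Separation of the groups was read against that of all genes tested. All MGHS values exceeded all MGNS values in 8.39% of genes in basal-like nuclei, 7.09% in spinous-like, 4.43% in granular-like, 6.33% in cycling and 5.03% in all keratinocyte-like nuclei. CA1 and CA12 did so in the basal-like and spinous-like layers, CA1 in the cycling layer, and none of the 3 in the granular-like layer or in all keratinocyte-like nuclei. Outside the 4 layers the fold change of CA1 was positive in all 12 other classes and clusters, from 0.20 to 2.09, and it passed in 1 of them. Clusters 3 and 9 are among the 12 and hold keratinocyte genes. Of the non-epithelial classes, none passed for CA1, with 2.09 ± 0.28 (SE, adjusted p = 0.123 by edgeR) in blood endothelial-like and 1.76 ± 0.50 (SE, adjusted p = 0.461 by edgeR) in T or NK-like nuclei. Whether free RNA had a part in the difference within keratinocyte-like nuclei was not tested.

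The 1 that passed was cluster 3. In it, a cluster of 959 nuclei led by KRT36, LY6D and PI3 that met no class's naming rule, CA1 rose by 1.85 ± 0.36 (SE, adjusted p = 0.0481 by edgeR) in MGHS, where 0.376% of all genes passed. CA1 measured 3559, 2249 and 1306 CPM there in MGNS and 7440, 8784 and 7892 CPM in MGHS. The groups did not overlap, as in 7.14% of genes. The call was lost in 10 of 12 alternatives, those without any 1 of the 6 animals among them, and held under DESeq2 and without the count filter (adjusted p from 2.93e-07 to 0.166 over the 12), which called 1.3% and 0.66% of all genes. Over the 12 classes and clusters together, 0.0378% of genes passed. Cluster 3 was 0.778% to 1.07% of nuclei in MGNS and 1.80% to 5.07% in MGHS.

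CA12 had a fold change of 0.77 ± 0.26 (SE, adjusted p = 0.248 by edgeR) in basal-like nuclei, with means of 350 ± 74.3 and 557 ± 134 CPM (SD, n = 3). In spinous-like nuclei it was 1.55 ± 0.26 (SE, adjusted p = 0.108 by edgeR), with means of 22.8 ± 5.93 and 63.5 ± 13.6 CPM. Finer clustering, at resolution 1.2, moved the mean of the 6 animals in that layer from 43.1 to 72.7 CPM. CA12 was thus 1.59 times as high in MGHS in the layer where it was abundant and 2.79 times as high in the layer where it was low. The spinous-like difference passed under DESeq2 (adjusted p = 2.01e-04), limma-voom (adjusted p = 0.0472) and edgeR without the count filter (adjusted p = 0.0125), which called 2.64%, 0.167% and 0.487% of all genes, and over its 12 alternatives the adjusted p ran from 2.01e-04 to 0.344. Cycling nuclei gave 0.49 ± 0.28 (SE, adjusted p = 0.442 by edgeR) and granular-like nuclei 1.25 ± 0.44 (SE, adjusted p = 0.236 by edgeR). In T or NK-like nuclei, at 4.03 to 14.4 CPM, the fold change was 1.22 ± 0.40 (SE, adjusted p = 0.493 by edgeR).

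CA13 showed no separation of the groups. Its fold change was 0.19 ± 0.37 (SE, adjusted p = 0.822 by edgeR) in basal-like and 0.36 ± 0.47 (SE, adjusted p = 0.776 by edgeR) in spinous-like nuclei. In all keratinocyte-like nuclei it was 0.05, although the mean was 26.95 CPM in MGNS and 22.8 CPM in MGHS, and it turned negative under several alternatives. CA13 lies next to CA1 on chromosome 9, with 1 uncharacterised RNA gene between them in the NCBI gene table. In basal-like nuclei its groups overlapped where those of CA1 did not, and the difference between the 2 genes was not tested.

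**Figure D5:**
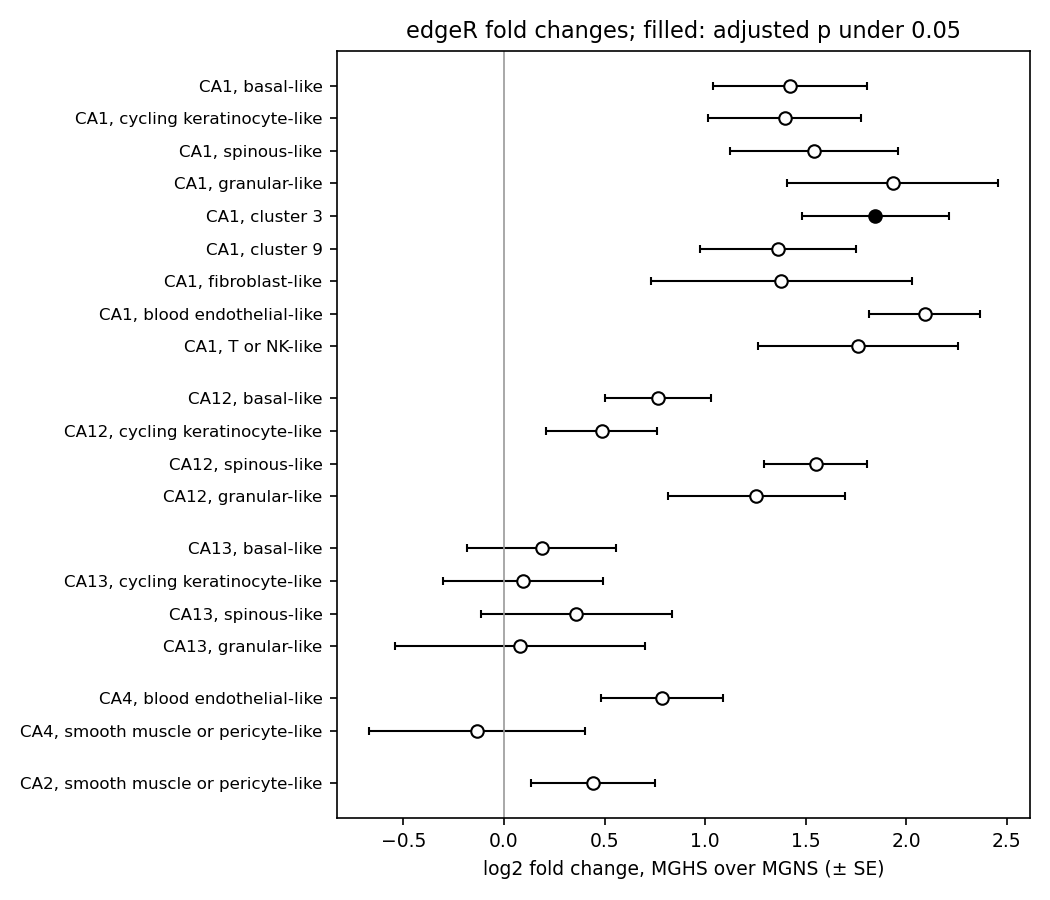
edgeR log2 fold changes of MGHS over MGNS (horizontal axis, points with SE bars) for the genes and classes named on the vertical axis; a filled point has an adjusted p under 0.05. CA1 in cluster 3 is the filled point, all CA1 points lie above 1, and all CA13 bars cross 0.

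The difference between layers was tested directly in 1 model with the animal as a block. The MGHS effect on CA1 in spinous-like nuclei minus that in basal-like nuclei was 0.10 ± 0.27 (SE, adjusted p = 1.0 by edgeR), and the effect on CA12 differed by 0.70 ± 0.33 (SE, adjusted p = 1.0 by edgeR, unadjusted p = 0.0471). No gene passed in this contrast (0%), and 709 of all genes had an unadjusted p under 0.05. In granular-like nuclei minus basal-like nuclei CA1 gave 0.57 ± 0.27 (SE, adjusted p = 0.289 by edgeR) and CA12 gave 0.56 ± 0.36 (SE, adjusted p = 0.468 by edgeR), where 2.68% of all genes passed. No layer was therefore shown to differ from another in its response of CA1 or CA12.

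In the vessel set, CA4 had a fold change of 0.78 ± 0.30 (SE, adjusted p = 0.529 by edgeR) in blood endothelial-like nuclei, with means of 86.6 ± 28.7 and 152 ± 50.0 CPM (SD, n = 3). No gene passed in that class (0%), and 872 had an unadjusted p under 0.05. CA2 gave 0.44 ± 0.31 (SE, adjusted p = 0.629 by edgeR) in the joined smooth muscle or pericyte-like class, where also no gene passed (0%) and 1426 had an unadjusted p under 0.05. CA4 gave -0.13 ± 0.54 (SE, adjusted p = 0.948 by edgeR) there.

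Summed over all retained nuclei, CA1 measured 2734, 1852 and 1258 CPM in MGNS and 3432, 5959 and 7261 CPM in MGHS, and CA4 measured 2.64, 3.53 and 3.21 CPM in MGNS and 5.13, 5.15 and 9.09 CPM in MGHS. In such sums, fewer nuclei of a type and less RNA per nucleus cannot be told apart. Every MGHS animal exceeded every MGNS animal for 3 of the 5 genes, CA1, CA4 and CA12, as it did for 7.84% of all genes. The fold change was 1.62 ± 0.41 (SE, adjusted p = 0.125 by edgeR) for CA1 and 1.15 ± 0.29 (SE, adjusted p = 0.128 by edgeR) for CA4. Blood endothelial-like nuclei were 2.59% to 4.12% of nuclei in MGNS and 3.42% to 5.51% in MGHS. None of the 5 genes passed by edgeR, as no gene did (0%); 3743 genes, 3 of the 5 among them, had an unadjusted p under 0.05 (9.39% of genes with MGHS higher), and DESeq2 called 3 of the 5 and 7.6% of all genes.

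Among the other family members, CA10, a form without catalytic activity, was concentrated in lymphatic endothelial-like nuclei, which held 68.3% of its 2563 UMIs. CA10 measured 341, 385 and 221 CPM there in MGNS and 604, 778 and 824 CPM in MGHS, without overlap, as in 7.2% of genes (fold change 1.24 ± 0.26, SE, adjusted p = 0.139 by edgeR). CA8, also without catalytic activity, had 48.3% of its 2309 UMIs in the unnamed cluster 12, led by BLK and CA8 itself. CA8 measured 235, 631 and 565 CPM in that cluster in MGNS and 263, 84.0 and 243 CPM in MGHS, with overlap. In blood endothelial-like nuclei CA8 measured 16.7, 13.5 and 6.66 CPM in MGNS and 20.5, 21.1 and 47.3 CPM in MGHS (fold change 1.31 ± 0.45, SE, adjusted p = 0.475 by edgeR). Its fold change was negative in fibroblast-like nuclei. CA8 measured 39.3, 65.0 and 44.6 CPM in fibroblast-like nuclei of MGNS and 13.8, 12.9 and 27.2 CPM in MGHS (fold change -1.46 ± 0.33, SE, adjusted p = 0.151 by edgeR). CA3, a cytosolic form known from muscle, had 71.1% of its 646 UMIs in fibroblast-like nuclei, at 16.9, 6.69 and 13.7 CPM in MGNS and 59.9, 61.1 and 23.4 CPM in MGHS (fold change 1.94 ± 0.45, SE, adjusted p = 0.163 by edgeR). In fibroblast-like nuclei the fold changes of CA8 and CA3 had opposite signs, and neither passed by edgeR. CA9, a transmembrane form like CA12 and known as a target of hypoxia signalling, measured 3.67, 2.66 and 3.34 CPM in basal-like nuclei of MGNS and 5.01, 4.55 and 4.50 CPM in MGHS (fold change 0.65 ± 0.31, SE, adjusted p = 0.353 by edgeR). CA11 gave 0.83 to 1.27 CPM in MGNS and 1.52 to 3.09 CPM in MGHS in the same layer. CA5A, CA6, CA7 and CA14 had 21, 10, 1 and 20 UMIs in all.

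Transporters that use the products of carbonic anhydrase gave the pathway around these genes. Of 23 bicarbonate and chloride exchange genes in the files, 16 were tested in all keratinocyte-like nuclei and none passed, with a median fold change of -0.01 beside 0.01 over all genes. At an unadjusted p under 0.05, edgeR called 0 higher and 2 lower, where 9.16% of all genes were higher and 8.54% lower. Of 27 proton export and acid transport genes, 22 were tested and none passed, with a median of 0.20, and 3 higher and 2 lower had an unadjusted p under 0.05, beside the same shares of all genes. The anion exchanger SLC26A7 measured 27.6, 41.1 and 25.8 CPM in MGNS and 10.3, 15.1 and 8.60 CPM in MGHS (fold change -1.2 ± 0.30, SE, adjusted p = 0.155 by edgeR). The endosomal sodium-proton exchanger SLC9A7 measured 11.3, 12.1 and 6.29 CPM in MGNS and 4.24, 4.47 and 4.38 CPM in MGHS (fold change -0.91 ± 0.27, SE, adjusted p = 0.181 by edgeR). Both fold changes were negative, and neither passed. The apical exchanger SLC9A3, which trades the protons made by carbonic anhydrase for sodium, measured 130, 99.6 and 135 CPM in MGNS and 340, 272 and 154 CPM in MGHS (fold change 1.36 ± 0.37, SE, adjusted p = 0.165 by edgeR). SLC26A9 gave -2.22 ± 0.59 (SE, adjusted p = 0.165 by edgeR), SLC26A11 0.68 ± 0.34 (SE, adjusted p = 0.333 by edgeR) and the proton channel HVCN1 -1.47 ± 0.52 (SE, adjusted p = 0.216 by edgeR).

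The genes whose levels ran most like each member over the 17 classes and clusters were ranked by Pearson's r of mean log2(CPM + 1) among 14966 genes. The classes share 6 libraries, so r is a description. For CA1 the nearest were S100A2 (r = 0.995), LOC114116405 (r = 0.994) and LOC101112249 (r = 0.993). For CA12 they were LOC101104808 (r = 0.980), LOC132658502 (r = 0.974) and LOC114115282 (r = 0.967), and for CA13 TFAP2A (r = 0.969), LOC114112057 (r = 0.956) and EPHX2 (r = 0.955). CA4 ran with SFTPB (r = 0.965), the endothelial gene PLVAP (r = 0.957) and LOC121817646 (r = 0.955). CA2 ran less closely with any gene, nearest with RGS5 (r = 0.845), ART4 (r = 0.842) and HIGD1B (r = 0.835). Among the members themselves r was 0.84 for CA1 with CA13, 0.80 for CA1 with CA12, 0.76 for CA12 with CA13 and 0.60 for CA2 with CA4.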

How the data were processed

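Nuclear RNA of 6 libraries was counted as UMIs per gene and barcode. The deposited counts are raw whole numbers made by the authors with Cell Ranger, version 8.0.0 per the file headers and 2.1.1 per the submitters' processing notes; no source used here names the build, so no coordinates or sequences are printed. All 26741 gene numbers matched symbols of the NCBI table (assembly ARS-UI_Ramb_v3.0). LOC114116406 overlaps CA1 in that table. The strand setting of the counting is not given, so whether some reads were counted for the wrong gene of the pair is not known.

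Of 67553 barcodes, those with under 300 genes, over 10% mitochondrial UMIs or in the top 0.5% by UMIs were removed, as were 3661 doublets called by Scrublet (its threshold in 4 libraries, the top 0.8% of scores per 1000 nuclei in MGNS 1 and 2), leaving 41822. Scanpy 1.11.5 clustered them on 2000 variable genes without the 14 family genes, with 30 components, 5 neighbours per library and Leiden resolution 0.8 (23 clusters), named from 15 marker lists. Names were rebuilt here and may differ from the study's.

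Counts were summed per animal and class and tested with edgeR 4.0.16 (R 4.3.3, count minimum 10, TMM, at least 20 nuclei per animal), with DESeq2 1.42.0, limma-voom 3.58.1, other scaling, no filter, other clustering and each animal left out as alternatives. Shares of nuclei were compared by a two-sided exact permutation test, whose smallest p is 0.1 for 3 against 3; over 20 comparisons the lowest adjusted p was 0.4, and 0.5 after thinning. The labels do not pair animals. The p-values of the edgeR test set the difference between groups against the spread between these animals. On simulated counts for basal-like nuclei the test called 39% of 100 genes changed 2-fold and 98% of 100 changed 4-fold, with 7 false calls over 13843 genes.

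The genes named are the 5 members, the other family genes, the 3 genes with the smallest p in all keratinocyte-like nuclei in each of the other lists, and the 3 genes most like each member. The members and lists were chosen with earlier results of these data known. CA5B and CA15 were not analysed here.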

Additional observations from a re-analysis of the deposited data

How the results depend on the processing

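The fold changes counted were a part of those recomputed under an alternative. Of them, 383 kept their direction and side of the threshold, 24 were stronger, 10 weaker and 23 reversed. All reversals counted were of CA13, of CA4 in smooth muscle or pericyte-like nuclei or of CA1 in the spinous-like minus basal-like contrast. Signs changed outside the count too. CA1 ran from -0.33 to 1.19 in glia-like nuclei. CA12 ran from -0.28 to 0.54 in blood endothelial-like and from -0.81 to 0.22 in lymphatic endothelial-like nuclei. CA13 turned to -0.0614 under limma-voom and -0.0893 with equal layer weight in all keratinocyte-like nuclei, and to -0.14 under limma-voom in granular-like nuclei. Its spinous-like minus basal-like difference turned to 0.01 (0.00612) with RLE size factors. Leaving out 1 animal at a time moved CA13 between -0.51 and 0.34 in all keratinocyte-like, -0.22 and 0.51 in basal-like, -0.41 and 0.64 in spinous-like, -1.02 and 0.46 in granular-like, -0.40 and 0.42 in cycling and -0.15 and 0.49 in all nuclei, and between -0.23 and 0.11 in the layer contrast. CA4 moved between -0.56 and 0.32 and the CA1 contrast between -0.0733 and 0.21. The thinned share of granular-like nuclei with a CA13 UMI differed by 0.0609 percentage points, against -1.73 unthinned, and CA12 in spinous-like nuclei averaged 72.7 CPM at resolution 1.2, against 43.1.

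The number of genes called depended on the tool. In all keratinocyte-like, basal-like, spinous-like, granular-like, cycling and all nuclei, DESeq2 called 1006, 420, 332, 488, 204 and 1433 genes, and edgeR without the count filter 14, 43, 108, 118, 624 and 22. limma-voom called 0, 31 and 21 in the first 3, 6 in cycling and 305 in all nuclei, and RLE size factors gave 6 in cycling. In the 12 other classes and clusters together, DESeq2 called 903, RLE size factors 20 and no filter 1610. Leaving out 1 animal gave 0 to 160 (160 without MGHS animal 3), 0 to 8, 0 to 7, 0 to 20, 1 to 102 and 0 to 52 calls in the 6 sets, 0 to 1 and 78 to 853 in the spinous-like and granular-like contrasts, and 1 to 78 in the 12 others. Chosen after seeing the data, adding cluster 3 to granular-like nuclei gave 1 call and adding clusters 3 and 9 to all keratinocyte-like nuclei gave 0. Equal replicate numbers do not pair the animals, whose deviations correlated at -0.13, -0.07 and 0.01. With the replicate number as a block, 0 genes were called in all keratinocyte-like, 6 in basal-like, 115 in cycling nuclei and 157 in the 12 others, and CA13 turned to -0.0319 in all keratinocyte-like and -0.27 in granular-like nuclei. The cause of these changes was not tested. With 3 animals a group, the exact permutation test of a share could not reach the threshold, and CA2 and CA4 rest on few UMIs.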

Other observations

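The genes beside CA1 on chromosome 9 were looked at after their values were seen. In the NCBI table the order is CA2, CA3, LOC132657233, LOC132657200, LOC114116405, CA1, LOC114116406 and CA13. LOC114116405 is a protein-coding gene in that table, and its level ran almost as that of CA1 did over the classes. It measured 4819, 1351 and 5184 CPM in basal-like nuclei of MGNS and 1428, 2050 and 2896 CPM in MGHS (fold change -0.74 ± 0.53, SE, adjusted p = 0.506 by edgeR). Its groups overlapped, and its fold change had the opposite sign to that of CA1, a difference that was not tested. LOC114116406, the uncharacterised RNA gene that overlaps CA1, measured 298, 134 and 570 CPM in MGNS and 558, 490 and 518 CPM in MGHS in basal-like nuclei, with overlap. In spinous-like nuclei it measured 110, 40.1 and 67.6 CPM in MGNS and 218, 260 and 197 CPM in MGHS, without overlap, as in 7.09% of genes (fold change 1.71 ± 0.36, SE, adjusted p = 0.159 by edgeR). Whether LOC114116405 or LOC114116406 shares reads with CA1 was not tested.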
